A study of Arabidopsis thaliana with 6 samples.

Results

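The glutathione S-transferases described here are the 48 of 27372 genes in the expression file whose description names a glutathione S-transferase of the tau, phi, theta, zeta or lambda class by its class letter and number. They comprise 27 tau (*GSTU*), 13 phi (*GSTF*), 3 theta (*GSTT*), 2 zeta (*GSTZ*) and 3 lambda (*GSTL*) genes. The rule used no measured value, but the members were chosen with earlier results of these data known. *GSTU21* carried no description in the file and fell outside the rule, with at most 0.0833 FPKM in any library. Expression was measured by RNA-seq in whole seedlings of *Arabidopsis thaliana* ecotype Columbia (Col-0) and of *fer-4*, 1 mutant line of the receptor-like kinase gene *FERONIA* (*FER*), with 3 biological replicates of each. All seedlings were grown on MS-agar for 7 days in long days at moderate light (154 μmol m–2 s–1) and harvested at zeitgeber time 3, so every library shares the light treatment and the genotypes were compared at this intensity only. *FER* itself averaged 61.2 ± 4.23 FPKM in the Col-0 libraries and 0.0538 ± 0.0329 FPKM in those of *fer-4* (SD, n = 3).

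Glutathione S-transferases join the thiol of glutathione to electrophilic compounds or use glutathione to reduce them, and many also bind and carry small molecules without changing them. The tau and phi classes are large in plants and are known for detoxification, stress responses and steps of secondary metabolism. The theta, zeta and lambda classes are small, and are known for peroxide reduction, tyrosine breakdown and thiol transfer, respectively.

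Levels are given in FPKM (fragments scaled to transcript length and to the mapped fragments of the library), which are per length and so can be compared between genes. Fold changes are *fer-4* over Col-0 on the log2(FPKM + 0.1) scale with the SE of the fit, and adjusted p-values are from limma over the 19839 genes that averaged 0.5 FPKM or more. A gene rose or fell at an adjusted p under 0.05, and DEGs (differentially expressed genes) passed 0.01 in adjusted p and changed by a factor of 2 or more. In bulk seedlings, fewer cells of a type and less RNA per cell cannot be told apart.

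The libraries held 21824 to 22015 genes above 0 and a relative depth between 0.871 and 1.09. Leaf and root genes of the labelled whole seedlings were present, whereas 4 seed genes summed to at most 2.89 FPKM and 3 flower genes to at most 3.82 FPKM in any library. Tissue markers differed between the genotypes. Summed levels of 5 photosynthetic genes were 30120 to 33181 FPKM in Col-0 and 20057 to 23831 FPKM in *fer-4*, those of 5 root hair genes 58.4 to 68.8 and 18.2 to 25.6 FPKM, and those of 4 root endodermis genes 94.0 to 101 and 39.8 to 65.1 FPKM. All 5 root hair genes fell, and 4 of the 5 photosynthetic genes did, although *COBL9* of the root hair list did not pass under 3 alternatives. The photosynthetic count was 1 on leaving out Col-0 replicate 1 or 3 and 2 on leaving out replicate 2 of Col-0 or replicate 3 of *fer-4*. None of these markers was at 0 in all libraries, and the part of these shifts in the results below was not tested.

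Most members were more abundant in *fer-4*. Of 46 members tested, 28 rose, 6 fell and 12 did not pass, against 18.0% of all tested genes that rose and 16.0% that fell. The median log2 fold change was 0.76 over the members and -0.0097 over all genes tested. In all, 18 members were DEGs with higher and 1 with lower expression in *fer-4*, against 6.36% and 2.53% of all tested genes. All *fer-4* libraries lay above all Col-0 libraries in 29 members and below them in 6, and such a separation held for 26.1% and 25.1% of all genes, respectively. *GSTU15* and *GSTZ2* were not tested because their mean was below 0.5 FPKM, and *GSTU3*, *GSTU11* and *GSTU12* passed this filter only through their level in *fer-4*.

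Tau and phi held nearly all of the large changes. In phi, 9 of 13 members rose, 2 fell and 2 did not pass, and the median log2 fold change was 1.43. All 9 that rose were DEGs. In tau, 16 of 26 tested members rose, 3 fell and 7 did not pass, with a median of 0.64, and 9 were DEGs with higher expression. Leaving out 1 library gave 1 tau member that fell without Col-0 replicate 1, 2 or 3 or replicate 3 of *fer-4* and 5 without *fer-4* replicate 1, and 1 phi member that fell without Col-0 replicate 1 or 2 or replicate 2 or 3 of *fer-4*. All DEGs among the members belonged to these 2 classes. The tested theta, zeta and lambda members ranged from -0.66 to 0.84. The number of members per class is small outside tau and phi, and differences between classes were not tested.

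**Figure D1:**
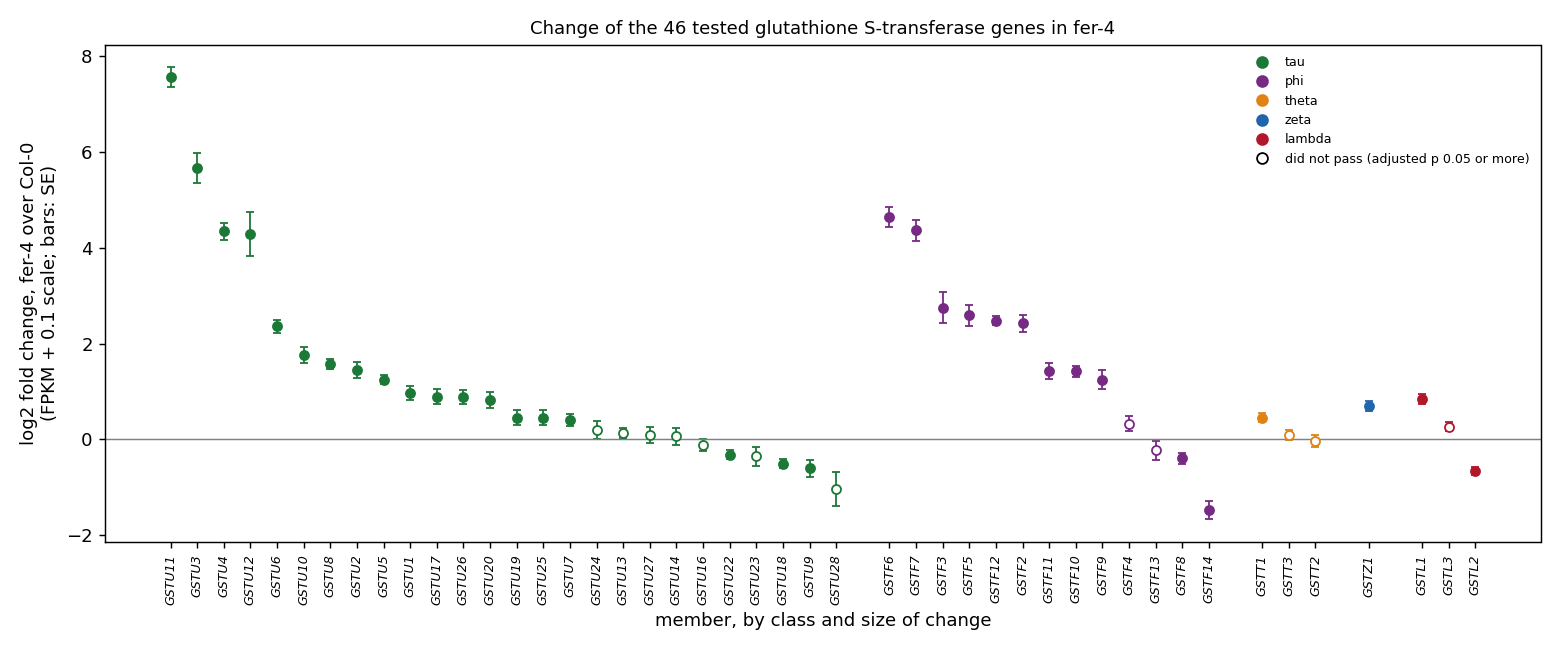
Log2 fold change (*fer-4* over Col-0, FPKM + 0.1 scale) of the 46 tested members, ordered by class and size, with bars for the SE of the fit and open symbols for the 12 members that did not pass. Increases reached 7.56 in tau and 4.63 in phi, and the theta, zeta and lambda members stayed between -0.66 and 0.84.

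*GSTU11* showed the largest increase. This tau gene (AT1G69930; TAIR10 chromosome 1, 26337497 to 26338795) had 0.0894, 0.167 and 0.140 FPKM in Col-0 replicates 1 to 3 and 45.9, 33.5 and 52.5 FPKM in *fer-4*. It was close to 0 in every Col-0 library and moderately abundant in every *fer-4* library (log2 fold change 7.56 ± 0.21, adjusted p = 1.83e-07). Its neighbour *GSTU12* (AT1G69920), whose product is directed to the nucleus, had 0.0445, 0.0817 and 0.0459 FPKM in Col-0 and 2.57, 1.58 and 6.27 in *fer-4* (4.29 ± 0.46, adjusted p = 2.86e-04). The *fer-4* libraries of *GSTU12* differed more among themselves than those of *GSTU11*, with replicate 3 far above the others, yet none approached Col-0.

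*GSTU3* (AT2G29470; chromosome 2, 12628541 to 12629543) was listed at 0 in Col-0 replicates 1 and 3 and at 0.0529 FPKM in replicate 2, and stood at 5.82, 4.21 and 7.73 FPKM in *fer-4* (5.67 ± 0.31, adjusted p = 7.74e-06). The gene next to it, *GSTU4* (AT2G29460, symbol GST22 in the file), rose from 4.77, 6.60 and 4.10 FPKM to 117, 90.8 and 108 FPKM (4.34 ± 0.17, adjusted p = 1.25e-06). Both genes thus separated the genotypes without overlap, *GSTU3* from near absence and *GSTU4* from a low level. The size of the fitted change of the rarest members depended on the pseudocount. With 1 FPKM added instead of 0.1, the log2 fold changes of *GSTU11*, *GSTU3*, *GSTU12*, *GSTF3* and *GSTF5* were 5.29, 2.73, 1.94, 1.86 and 1.81, and with 0.01 FPKM added those of *GSTU11*, *GSTU3* and *GSTU12* were 8.29, 8.28 and 5.50. *GSTU11* ranked first under all 3 pseudocounts, whereas with 1 FPKM added *GSTU3* ranked after *GSTF6*, *GSTF7* and *GSTU4* (4.57, 4.28 and 4.12).

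The 250 bases before the RefSeq gene start are shown for *GSTU11* and *GSTU3*, the members with the largest increases on the FPKM + 0.1 scale, and for *GSTF14*, the member with the largest decrease, so that their upstream letters can be compared. They were read 5′ to 3′ on the gene's strand from the RefSeq assembly TAIR10.1, at chr1:26338819-26339068 (minus strand), chr2:12629641-12629890 (minus strand) and chr1:18458276-18458525 (plus strand). Capitals mark TGACG, the core of elements bound by TGA factors, and TTGAC, the core of the W box bound by WRKY factors, on either strand.
GSTU11: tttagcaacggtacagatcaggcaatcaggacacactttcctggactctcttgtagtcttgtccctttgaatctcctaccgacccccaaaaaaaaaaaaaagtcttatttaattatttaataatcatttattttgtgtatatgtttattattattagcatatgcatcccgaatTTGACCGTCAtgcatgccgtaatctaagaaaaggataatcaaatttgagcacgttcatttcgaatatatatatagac
GSTU3: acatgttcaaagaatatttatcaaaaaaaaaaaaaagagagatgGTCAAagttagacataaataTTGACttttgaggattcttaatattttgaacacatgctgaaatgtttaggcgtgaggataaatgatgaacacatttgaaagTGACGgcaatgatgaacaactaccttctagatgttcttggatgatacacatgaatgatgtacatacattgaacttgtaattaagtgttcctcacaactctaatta
GSTF14: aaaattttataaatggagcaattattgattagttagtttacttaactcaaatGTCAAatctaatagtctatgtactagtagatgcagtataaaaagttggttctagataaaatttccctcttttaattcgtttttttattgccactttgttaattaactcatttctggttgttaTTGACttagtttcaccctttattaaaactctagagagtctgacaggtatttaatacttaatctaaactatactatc
In *GSTU11* a TTGAC beginning 77 bases before the start was followed directly by a reverse TGACG at 72 bases. *GSTU3* had 1 TGACG, 105 bases before the start, and 2 TTGAC, and *GSTF14* had 2 TTGAC and no TGACG. A match is a description of these letters and not evidence of binding.

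Besides TGACG and the W box core, the G box with the letters CACGTG was searched in these windows, each of the 3 motifs on both strands. TGACG and TTGAC can overlap in TTGACG. The first was present as TGACG in 15 of 48 members (31.3%) and in 18.6% of the 27443 protein-coding genes on the nuclear chromosomes, TTGAC in 27 of 48 (56.3%) and 44.9%, and CACGTG in 4 of 48 (8.33%) and 6.49%. Among the 28 members that rose, 10 had TGACG, 19 had TTGAC and 2 had CACGTG. Among the 6 that fell, the counts were 3, 4 and 1, and among the 12 that did not pass 2, 4 and 1. The windows of some members overlap another annotated gene, so not all of these letters lie between genes. Those of *GSTU5*, *GSTU7*, *GSTU24* and *GSTF8*, with TGACG, and of *GSTU18* and *GSTL3*, with CACGTG, are among them.

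Among the phi members with the largest increases, 3 exceeded 300 FPKM in *fer-4* on average. *GSTF6* (AT1G02930; chromosome 1, 661177 to 662456), which serves camalexin synthesis, had 20.4, 21.0 and 20.9 FPKM in Col-0 and 518, 368 and 726 in *fer-4*. The Col-0 libraries were nearly identical and each *fer-4* library was more than an order of magnitude above them (4.63 ± 0.21, adjusted p = 2.74e-06). *GSTF7* (AT1G02920, symbol GST11), its pathogen-responsive neighbour, rose from 15.5, 13.6 and 16.5 FPKM to 290, 234 and 453 FPKM (4.36 ± 0.22, adjusted p = 4.72e-06), with the libraries in the same order as for *GSTF6* within *fer-4*. The 2 transcripts share an identical stretch of 116 bases, so the division of reads between them is uncertain.

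*GSTF2* (AT4G02520, symbol ATPM24.1), which binds camalexin and flavonoids, had 83.1, 84.2 and 79.4 FPKM in Col-0 and 446, 336 and 574 in *fer-4* (2.42 ± 0.18, adjusted p = 3.09e-05). Its close relative *GSTF3* (AT2G02930) was rare, with 0.572, 0.529 and 1.02 FPKM in Col-0 and 5.47, 3.35 and 7.28 in *fer-4* (2.74 ± 0.32, adjusted p = 4.54e-04). Both were lowest in replicate 2 and highest in replicate 3 of *fer-4*, and neither overlapped Col-0. They share 74 identical bases, so that part of the *GSTF3* signal could be assigned from the more abundant *GSTF2*, which was not tested. *GSTF5* (AT1G02940) had 0.816, 0.628 and 1.05 FPKM in Col-0 and 5.36, 4.40 and 6.65 in *fer-4* (2.59 ± 0.22, adjusted p = 8.49e-05).

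*GSTF12* (AT5G17220), also known as TRANSPARENT TESTA 19 and needed to bring anthocyanins into the vacuole, showed the least scatter among the large increases. It had 22.4, 23.8 and 20.3 FPKM in Col-0 and 134, 115 and 121 in *fer-4* (2.47 ± 0.10, adjusted p = 1.02e-06). The *fer-4* libraries lay close together and were 5.57-fold above Col-0 on average.

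**Figure D2:**
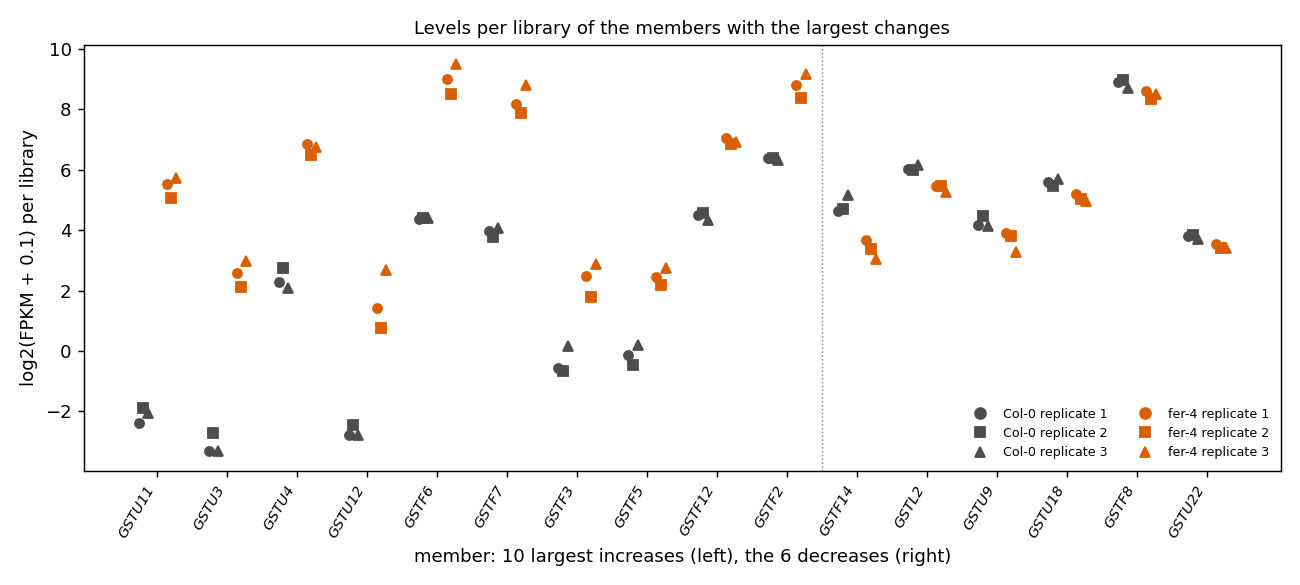
Level per library, as log2(FPKM + 0.1), of the 10 members with the largest increases (left of the dotted line) and the 6 members that fell (right), with 1 symbol per library, grey for Col-0 and orange for *fer-4*. The 16 members were chosen because they passed the comparison of the genotypes, and in none of them did the genotypes overlap. Over all tested genes, *fer-4* lay wholly above Col-0 in 26.1% and wholly below in 25.1%. *fer-4* replicate 3 was the highest of its group in 8 of the 10 increases.

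Of the 6 members that averaged 300 FPKM or more over all libraries, *GSTF9*, *GSTF10*, *GSTU19*, *GSTU20* and *GSTU5* rose and *GSTF8* fell. *GSTF9* (AT2G30860), linked to glucosinolate synthesis, was the most abundant member in both genotypes, with 1055, 1033 and 999 FPKM in Col-0 and 3278, 2219 and 1996 in *fer-4* (1.25 ± 0.19, adjusted p = 0.00183). Its neighbour *GSTF10* (AT2G30870, symbol ERD13 for early responsive to dehydration) had 326, 332 and 347 FPKM in Col-0 and 1044, 858 and 801 in *fer-4* (1.42 ± 0.12, adjusted p = 8.49e-05). In both genes replicate 1 was the highest *fer-4* library, and all *fer-4* libraries were clear of Col-0.

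Among tau members, *GSTU19* (AT1G78380), active on herbicides and model substrates, had 862, 897 and 788 FPKM in Col-0 and 1368, 966 and 1189 in *fer-4*, where the lowest *fer-4* library lay only just above the highest Col-0 library (0.46 ± 0.15, adjusted p = 0.0492). *GSTU20* (AT1G78370), assigned with *GSTF11* to the glutathione conjugation step of aliphatic glucosinolate synthesis, had 522, 446 and 511 FPKM in Col-0 and 1101, 817 and 735 in *fer-4* (0.83 ± 0.16, adjusted p = 0.00578). *GSTU5* (AT2G29450), an auxin-responsive gene, had 198, 206 and 206 FPKM in Col-0 and 527, 437 and 491 in *fer-4* (1.25 ± 0.10, adjusted p = 5.34e-05). For *GSTU5* the gap between the genotypes was wider than the range within either, whereas the *fer-4* libraries of *GSTU20* spread more widely than that gap.

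The remaining increases in tau ranged from 0.41 in *GSTU7* to 2.36 in *GSTU6* and included *GSTU8*, which rose from 77.6 ± 0.625 to 233 ± 32.5 FPKM, and *GSTU17*, a regulator of drought and light responses, from 147 ± 13.8 to 277 ± 57.7 FPKM (SD, n = 3). *GSTF11* rose from 28.9 ± 4.17 to 78.6 ± 17.2 FPKM with a log2 fold change of 1.43. Of the TNT-detoxifying pair, *GSTU25* rose by 0.45 ± 0.15 (adjusted p = 0.0466), a call that did not hold under 9 alternatives, and *GSTU24* had 48.7 ± 10.8 FPKM in Col-0 and 55.5 ± 10.3 in *fer-4* and did not pass (0.20 ± 0.19). The difference between these 2 changes was not tested.

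Members fell in tau, phi and lambda. *GSTF14* (AT1G49860; chromosome 1, 18458666 to 18459906) showed the largest decrease, with 25.0, 25.7 and 36.1 FPKM in Col-0 and 12.6, 10.3 and 8.17 in *fer-4* (-1.47 ± 0.19, adjusted p = 7.18e-04). Even its lowest Col-0 library was above every *fer-4* library. *GSTF8* (AT2G47730), a widely used stress-responsive gene with a plastid and a cytosolic form, had 484, 504 and 422 FPKM in Col-0 and 387, 323 and 364 in *fer-4* (-0.39 ± 0.12, adjusted p = 0.0313). Both AT1G02940 (*GSTF5*) and AT2G47730 bear the symbol ATGSTF5 in the file, and they were told apart by locus.

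The 3 tau members that fell changed less than *GSTF14*. *GSTU9* (AT5G62480) had 18.1, 22.2 and 17.5 FPKM in Col-0 and 14.9, 13.9 and 9.56 in *fer-4* (-0.61 ± 0.18, adjusted p = 0.0295). *GSTU18* (AT1G10360) had 48.2, 44.2 and 51.2 FPKM in Col-0 and 36.9, 32.7 and 31.4 in *fer-4* (-0.51 ± 0.10, adjusted p = 0.00485), and *GSTU22* (AT1G78340) had 13.9, 14.1 and 12.9 FPKM and 11.6, 10.5 and 10.6 FPKM, respectively (-0.32 ± 0.09, adjusted p = 0.0297). The ranges of the genotypes did not overlap in any of the 3, which were chosen because they passed the comparison of the genotypes. *GSTU28* had 3.67, 3.70 and 2.69 FPKM in Col-0 and 2.92, 1.28 and 1.02 in *fer-4*, where *fer-4* replicate 1 lay within the Col-0 range, and did not pass (-1.03 ± 0.35, adjusted p = 0.0516).

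In the theta class, whose products reside in peroxisomes, only *GSTT1* (AT5G41210) rose. It had 82.7, 85.6 and 84.8 FPKM in Col-0 and 131, 109 and 108 in *fer-4* (0.45 ± 0.10, adjusted p = 0.00788). *GSTT2* (AT5G41240) had 5.61, 5.50 and 4.80 FPKM in Col-0 and 5.35, 5.56 and 4.56 in *fer-4* (-0.04 ± 0.13, adjusted p = 0.826), and *GSTT3* (AT5G41220) had 6.34, 7.49 and 6.87 FPKM and 7.31, 6.98 and 7.84 FPKM (0.10 ± 0.11, adjusted p = 0.525). These 2 overlapped between the genotypes and share 134 identical bases, which leaves their separate levels uncertain. *GSTT3* also shares 90 identical bases with the more abundant *GSTT1*, so part of its signal could be assigned from *GSTT1*, which was not tested.

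*GSTZ1* (AT2G02390), the maleylacetoacetate isomerase of tyrosine breakdown, had 82.2, 93.3 and 80.3 FPKM in Col-0 and 146, 125 and 144 in *fer-4* (0.70 ± 0.10, adjusted p = 0.00124). No *fer-4* library came near the Col-0 range. The adjacent *GSTZ2* had between 0.126 and 0.771 FPKM across the 6 libraries.

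The lambda members, which act as thiol transferases and can reduce glutathione adducts of flavonols, went in different directions. *GSTL1* (AT5G02780) rose from 11.0, 9.93 and 12.1 FPKM to 21.7, 18.8 and 18.7 FPKM (0.84 ± 0.11, adjusted p = 7.32e-04). *GSTL2* (AT3G55040), whose product is directed to plastids, fell from 64.9, 64.0 and 71.0 FPKM to 43.9, 44.0 and 38.5 FPKM (-0.66 ± 0.09, adjusted p = 9.04e-04). *GSTL3* (AT5G02790), the most abundant of the class, had 243, 254 and 242 FPKM in Col-0 and 323, 288 and 280 in *fer-4*, all above Col-0, but did not pass (0.27 ± 0.09, adjusted p = 0.0596).

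Summed over members, transcripts of all 5 classes made up 0.481% to 0.523% of the FPKM of a Col-0 library and 0.944% to 1.09% in *fer-4*. The tau sum was 2427, 2427 and 2321 FPKM in Col-0 and 4634, 3439 and 3900 in *fer-4*, and the phi sum 2075, 2074 and 1985 FPKM and 6234, 4557 and 5134 FPKM. The *fer-4* libraries were above Col-0 in both classes, 1.67-fold for tau and 2.60-fold for phi on average. Tau was the larger class in Col-0, with 48.3% to 48.5% of the members' total against 41.3% to 41.5% for phi, and phi was larger in *fer-4*, with 53.0% to 54.0% against 40.0% to 40.5%. The theta, zeta and lambda sums differed by factors of 1.33, 1.62 and 1.11. These sums are descriptions without a test.

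**Figure D3:**
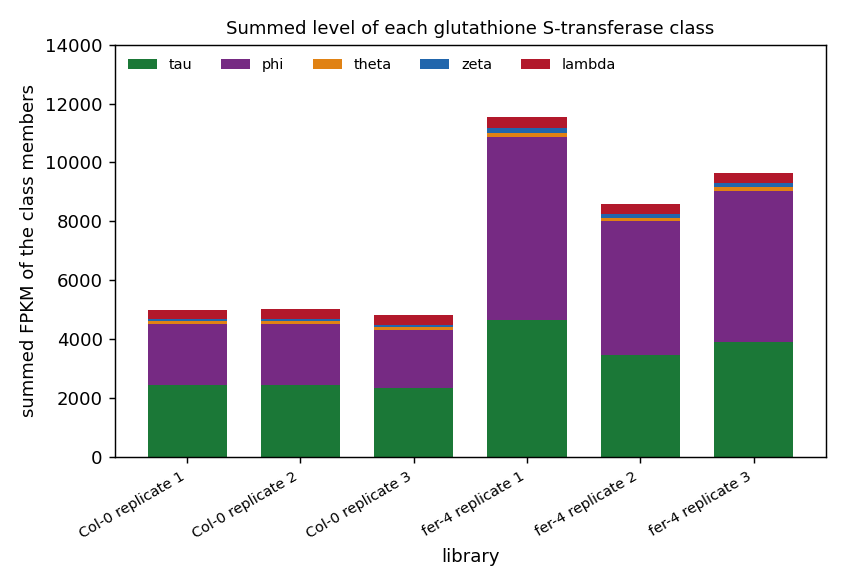
Summed FPKM of the members of each class in the 6 libraries, stacked from tau at the bottom to lambda at the top. Totals were 4808 to 5022 FPKM in Col-0 and 8594 to 11546 FPKM in *fer-4*, and the phi layer grew the most.

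A few genes carried each sum. In Col-0, *GSTF9* held 50.3%, *GSTF8* 23.0% and *GSTF10* 16.4% of the phi sum. In *fer-4*, *GSTF9* held 47.1% and *GSTF10* 17.0%, while *GSTF6* held 10.1%, *GSTF2* 8.52% and *GSTF8* 6.74%. In tau, *GSTU19*, *GSTU20* and *GSTU5* were the first 3 in both genotypes and together held 64.6% of the sum in Col-0 and 63.7% in *fer-4*.

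Members at every level in Col-0 rose. All 5 tested members with a Col-0 mean below 1 FPKM rose, but 3 of these entered the test only through *fer-4*. Between 1 and 10 FPKM, 4 of 11 rose and 7 did not pass, between 10 and 100 FPKM, 12 of 21 rose and 5 fell, and from 100 FPKM upwards, 7 of 9 rose and 1 fell. The median log2 fold change of the last group was 0.83.

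**Figure D4:**
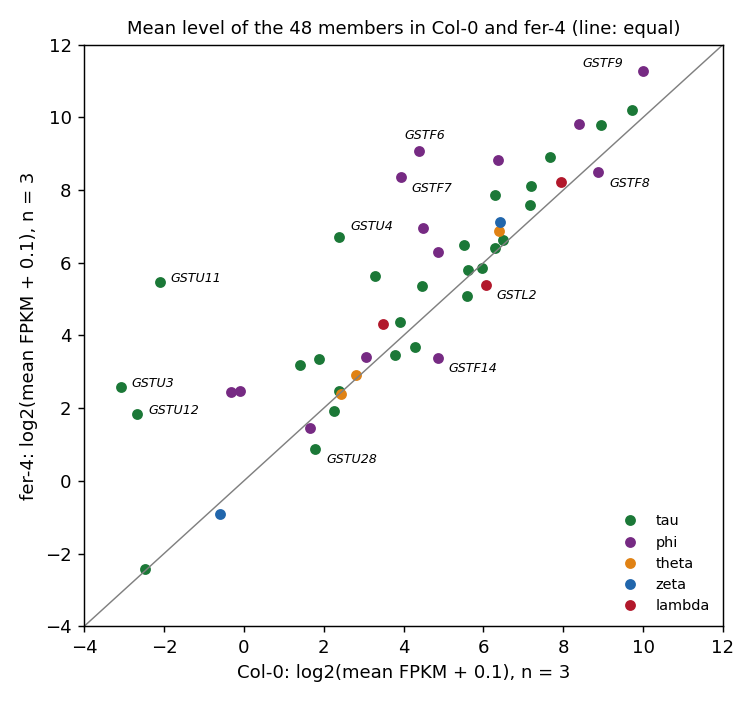
Mean level of the 48 members in Col-0 (x axis) and *fer-4* (y axis), as log2(mean FPKM + 0.1) with n = 3 per genotype, colored by class, and a line of equal levels. *GSTU11*, *GSTU3* and *GSTU12* lie near the bottom of the Col-0 range and far above the line, whereas *GSTF14* is the phi gene farthest below it.

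The libraries of *fer-4* varied more than those of Col-0, with a median coefficient of variation over the members of 19.4% against 8.49%, compared with 13.0% and 6.43% over all genes tested. *fer-4* replicate 1 was the highest of its group in 32 of 46 members (69.6%), against 39.6% of all genes. The FPKM of all genes summed to 1058750, 910619 and 955308 in *fer-4* replicates 1 to 3, and the part of these totals in that order was not tested. The 6 members that averaged 300 FPKM or more were all highest in *fer-4* replicate 1, whereas 8 of the 10 largest increases were highest in *fer-4* replicate 3. Without *fer-4* replicate 1, the phi sum remained 2.37-fold and the tau sum 1.53-fold above Col-0, and 26 members rose and 8 fell.

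Many members lie next to each other. Runs of 2 or more members with under 10 kb between neighbours formed 13 tandem arrays with 35 of the 48 members. *GSTU21*, outside the rule, lies between *GSTU22* and *GSTU20* (29482070 to 29482966), under 10 kb from both. Counting it would join the array of *GSTU23* and *GSTU22* to that of *GSTU20* and *GSTU19*. Of the members in arrays, 22 rose, 2 fell, 9 did not pass and 2 were not tested, with a median log2 fold change of 0.83. Of the 13 outside arrays, 6 rose, 4 fell and 3 did not pass, with a median of 0.09. Neighbours share sequence and are not independent of each other, and this difference was not tested.

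All 7 members of the largest array rose. By the deposited coordinates it spans 15.9 kb of chromosome 2 (12616564 to 12632473), although *GSTU7* at its left end starts at 12617936 in RefSeq. It holds *GSTU7* to *GSTU1* in descending order of their numbers. The log2 fold changes were 0.41, 2.36, 1.25, 4.34, 5.67, 1.44 and 0.97 in that order, so that the 2 largest stood side by side in *GSTU4* and *GSTU3*. *GSTU5*, the most abundant gene of the array in *fer-4*, had a smaller relative change than *GSTU6* and *GSTU4* on either side of it.

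The phi array *GSTF7*, *GSTF6*, *GSTF5* and *GSTF4* on chromosome 1 (658657 to 666452) held 3 genes that rose, whereas *GSTF4* at its end had 8.23 ± 0.677 FPKM in Col-0 and 10.5 ± 2.05 in *fer-4* and did not pass (SD, n = 3). Neighbours went apart in 1 array of members, in which *GSTU18* fell and *GSTU17* rose. With *GSTU21* counted, *GSTU22*, which fell, would share a run with *GSTU20* and *GSTU19*, which rose. *GSTU17* and *GSTU18* share 71 identical bases and overlap on the same strand in the RefSeq annotation, so their separation is uncertain. *GSTF8* and *GSTU10* each overlap another annotated gene on the same strand as well. *GSTU2*, *GSTU6*, *GSTU7*, *GSTF2*, *GSTF4*, *GSTF10*, *GSTF11*, *GSTF12*, *GSTZ1*, *GSTL2* and *GSTL3* overlap genes on the opposite strand. The counting strand is not known, so the share of reads from overlapping genes is uncertain.

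**Figure D5:**
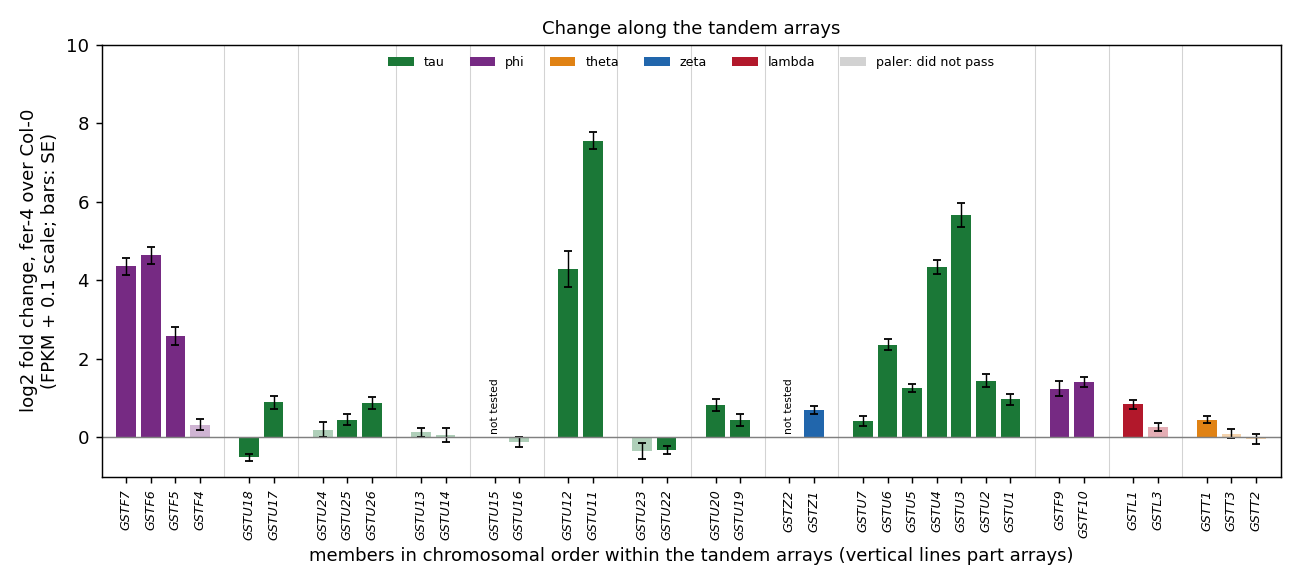
Log2 fold change (*fer-4* over Col-0, FPKM + 0.1 scale) with SE for the members of the 13 tandem arrays, in chromosomal order within each array, with paler bars for members that did not pass. The arrays of *GSTU7* to *GSTU1* and of *GSTU12* and *GSTU11* hold only increases, and *GSTU18* points down beside *GSTU17*.

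Gene structure differed by class. After merging overlapping exons of all RefSeq transcripts, each of the 27 tau genes had 2 exons, whereas the lambda and zeta genes had 9 or 10. Phi genes had 2 to 6 and theta genes 6 to 8.

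Genes that work with these enzymes were compared in the same fit, in which 18.0% of all tested genes rose and 16.0% fell. The lists were chosen with earlier results of these data known, and no list was tested as a set. Of 8 tested genes of other glutathione transferase classes, 5 rose, 1 fell and 2 did not pass. The dehydroascorbate reductase gene *DHAR1* rose from 389, 405 and 347 FPKM to 3941, 3165 and 2751 FPKM (3.10 ± 0.16, adjusted p = 5.43e-06) and so exceeded every member of the 5 classes in *fer-4* on average. *MGST*, a membrane-bound transferase, rose by 1.37 and *DHAR2* by 0.74, whereas the plastid form *DHAR3* fell from 208 ± 9.25 to 135 ± 10.8 FPKM (-0.62 ± 0.09, adjusted p = 0.00143).

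Glutathione supply and the handling of conjugates were less uniform, with 9 of 18 tested genes that rose, 2 that fell and a median log2 fold change of 0.29. *GGCT2;1*, a γ-glutamyl cyclotransferase of glutathione breakdown, rose by 3.08, the vacuolar pump gene *ABCC3* by 1.18 and *GGT4*, a vacuolar γ-glutamyl transpeptidase, by 1.15. *GR2*, the plastid glutathione reductase, fell by 0.38 and the transporter gene *ABCC4* fell by 0.64 (adjusted p = 0.0434). *ABCC4* did not pass without Col-0 replicate 1, 2 or 3 or replicate 2 of *fer-4* (0.109, 0.129, 0.0813 and 0.0516), nor without the trend or the filter (0.0662 and 0.0568), and the call of *GR1*, which rose, was lost under 5 alternatives.

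Of 15 regulators and targets of the detoxification response, 7 rose and 1 fell. The target genes *CYP81D8*, *UGT73B4* and *CYP81D11*, which encode cytochromes P450 and a glycosyltransferase, rose by 1.75, 1.68 and 1.30. *UGT74E2*, which glycosylates indole-3-butyric acid, fell by 0.70 (adjusted p = 0.0224) and did not pass without Col-0 replicate 1 or 2 or replicate 1 or 2 of *fer-4* (0.0807, 0.0739, 0.0527 and 0.0674). *TGA2*, *TGA5*, *TGA6* and their partner *SCL14*, the known upstream regulators on the list, had log2 fold changes of 0.07, 0.15, 0.21 and -0.19 and did not pass. *SCL14* passed after quantile normalization (0.0460), and the call of *OPR1*, which rose, was lost under 7 alternatives.

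Listed genes of the pathways that *GSTF12*, *GSTU20*, *GSTF11* and *GSTF6* serve mostly rose, against 18.0% of all tested genes. Of 9 anthocyanin genes, 8 rose with a list median of 2.62, led by the glycosyltransferase gene *UGT79B1* (3.13), *LDOX* (3.08) and *DFR* (2.99), next to 2.47 for *GSTF12*. Of 10 aliphatic glucosinolate genes, 8 rose with a median of 1.08, led by *GGP1* (2.34), which processes glutathione conjugates, *BCAT4* (1.68) and *SOT17* (1.60), next to 0.83 for *GSTU20* and 1.43 for *GSTF11*. The regulator genes *MYB28* (-0.16) and *MYB29* (0.31) of this list did not pass. All 7 genes of indole glucosinolate and camalexin synthesis rose with a median of 2.17, led by *CYP71A13* (3.19), *CYP79B3* (2.76) and *CYP79B2* (2.71), next to 4.63 for *GSTF6*. *CYP71A13* was rare, with a Col-0 mean of 0.0527 FPKM and a *fer-4* mean of 1.30, and entered the test only through *fer-4*. Its Col-0 levels lay below the 0.1 FPKM added, so the size of its change depends on that value. With the filter of 2 FPKM, which leaves *CYP71A13* out, 6 genes of the list rose. The call of the regulator gene *MYB51* (0.62, adjusted p = 0.0396) did not hold under 7 alternatives, including without Col-0 replicate 1, 2 or 3 or replicate 2 or 3 of *fer-4* (0.130, 0.0841, 0.0859, 0.0712 and 0.0841), which leaves 6 of the 7. *GSTU13*, linked to indole glucosinolate metabolism, had 90.1 ± 4.49 FPKM in Col-0 and 98.9 ± 12.9 in *fer-4* and did not pass (SD, n = 3).

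The calls of 37 members held under each of the 14 alternative settings in which they were tested, where *GSTU12* fell below the filter of 2 FPKM in 1, and those of 9 members did not. The values in parentheses are adjusted p-values from limma. *GSTU19* did not pass without Col-0 replicate 1, 2 or 3 or replicate 1 or 3 of *fer-4* (0.139, 0.107, 0.172, 0.0655 and 0.112), nor without the trend, with median-of-ratios scaling or with no filter (0.0509, 0.0564 and 0.0713). *GSTU25* did not pass without Col-0 replicate 1, 2 or 3 or replicate 1 or 2 of *fer-4* (0.124, 0.0625, 0.149, 0.0630 and 0.0674), nor without the trend, with median-of-ratios scaling, with no filter or after quantile normalization (0.0716, 0.0528, 0.0572 and 0.0886). *GSTU7* did not pass without Col-0 replicate 1, 2 or 3 or replicate 3 of *fer-4* (0.144, 0.0618, 0.123 and 0.0724), nor without the trend (0.0648). *GSTU9* did not pass without the same 4 libraries in turn (0.0668, 0.106, 0.0526 and 0.0532). *GSTU22* passed only with *fer-4* replicate 1 left out among the 6 settings that left out 1 library (0.118, 0.117 and 0.0564 without Col-0 replicates 1 to 3, and 0.0664 and 0.0750 without *fer-4* replicates 2 and 3). *GSTF8* did not pass without Col-0 replicate 1 or 2 or replicate 2 or 3 of *fer-4* (0.123, 0.129, 0.0708 and 0.0656). Of members that did not pass with all libraries, *GSTU28* passed without *fer-4* replicate 1 (0.00219) and with 1 FPKM added (0.0485), *GSTF4* (0.127 with all) without *fer-4* replicate 2 (0.0406) and *GSTU16* (0.533 with all) without *fer-4* replicate 1 (0.0326).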

How the data were processed

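RNA was extracted with Trizol from whole seedlings and sequenced on an MGISEQ-2000 from a directional library kit. The deposited table gives FPKM for each gene in each library, computed by the authors. The paper's methods give trimming and mapping to TAIR10, and STAR 2.5 and Cufflinks 2.2.1 are named in the submitters' processing notes. The counting strand and the read length are not given in the sources used here, and no read counts were used, so depth is known only as a ratio between libraries and no counting interval is given. The labels write the light unit as mmol and the paper as μmol. The authors' deposited fold changes, p-values and q-values between the genotypes were not used.

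Of 27372 genes, the 19839 that averaged 0.5 FPKM or more were fitted as log2(FPKM + 0.1) with limma 3.58.1 (R 4.3.3, intensity trend, genotype only, 2-sided), with Benjamini-Hochberg adjustment over all of them. The fit was also run on simulated normal values with equal spread in both genotypes and no floor at 0. In the data *fer-4* varied more and some members were near 0, so that run does not cover these features. With 3 libraries against 3, permutations cannot give a p below 0.1, and limma pools the spread over genes. Starts were raised by 1, because 3883 of 7465 genes with the same end in RefSeq had a start 1 less in the file. Upstream sequences and motifs were read with Python 3.11.15 from RefSeq TAIR10.1, and all 48 members matched by locus. The members and all lists were chosen with earlier results of these data known.

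Values per library are given for the 10 largest increases and 6 largest decreases among members that passed, the 3 most abundant tau and phi members, and every tested theta, zeta and lambda member. Up to 3 genes that rose and 3 that fell are named per partner list. *GSTU28*, the TGA factors, *MYB28*, *MYB29* and the other genes named outside this rule were chosen after their values were seen. Alternatives changed the pseudocount, the filter, the scaling, the trend, the replicate block and the libraries included.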

Additional observations from a re-analysis of the deposited data

How the results depend on the processing

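No member that rose or fell changed direction under any of the 14 alternatives in which it was tested. Leaving out 1 library in turn gave 25 to 28 members that rose and 3 to 8 that fell, against 28 and 6 with all libraries, and 2473 to 3947 genes that rose and 1938 to 3708 that fell over all genes, against 3569 and 3170. The tau sum was 1.53 to 1.78 times and the phi sum 2.37 to 2.78 times that of Col-0. Quantile normalization moved the median of all genes to -0.0773 and that of the members to 0.65, and the share of calls that were higher in *fer-4* from 53.0% to 42.2% (3064 rose and 4203 fell), while 27 members rose and 6 fell. It gave *GSTU13* and *GSTU27*, which did not pass, -0.018 and -0.036. Leaving out 1 library turned the estimates of 3 members that did not pass, with ranges of -0.087 to 0.19 for *GSTU14*, -0.092 to 0.23 for *GSTU27* and -0.11 to 0.043 for *GSTT2*. The causes were not tested.

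Same-numbered libraries showed no sign of pairing (correlations of same-numbered deviations -0.0444, 0.0426 and -0.0660), which cannot exclude that the samples were paired. With the replicate block, 26 members rose and 5 fell, and 3404 and 2986 of all genes did. The calls that changed under the block were those of *GSTU7*, *GSTU19*, *GSTU22* and *GSTF8*, which did not pass (adjusted p = 0.0572, 0.0668, 0.0544 and 0.0509), and of *GSTU28*, which did (0.0182).

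For *GSTU3*, where 1 Col-0 library was above 0, the low Col-0 values limit the size of the change.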
